A study of Mus musculus with 22 samples.

Results

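The 8 genes described here encode the A-type potassium channel of brain neurons: the pore subunits Kcnd2 and Kcnd3 (Kv4 channels), the membrane-spanning auxiliary subunits Dpp6 and Dpp10, and the calcium-binding auxiliary subunits Kcnip1, Kcnip2, Kcnip3 and Kcnip4 (KChIPs). They are 8 of 21887 protein-coding genes, and a peak of open chromatin was assigned to one of them when its summit lay within the GRCm38 gene body or the 10 kb on either side. The genes were chosen by name, and Dpp10 was known beforehand to have more open sites in frontal cortex, so the comparisons of the 2 tissues are given as descriptions. Where Fisher's exact test sorted sites by tissue, its calls serve as names for the sites and are not read as support. Whether earlier comparisons with LPS played a part in that choice is not known, so the p-values of those comparisons may not be independent of it.

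Hippocampus and frontal cortex were taken from 11 adult male C57BL/6J mice, both tissues from each animal, and profiled by OMNI-ATAC-seq, in which a transposase cuts accessible DNA, from 20 to 30 mg of frozen bulk tissue with paired reads of 50 bp. Every mouse, controls included, had drunk corticosterone (CORT) for 7 days, was injected with DFP (diisopropyl fluorophosphate, an irreversible inhibitor of acetylcholinesterase) on day 8, and received intermittent CORT over 5 weeks. On the last day mice were given saline and killed at 6 h (2 mice) or given lipopolysaccharide (LPS, a bacterial endotoxin) and killed at 6 h, 12 h or 24 h (3 mice each). No group without CORT and DFP was analysed here, and since both saline mice were collected at 6 h, LPS and the time of collection cannot be told apart at 12 h and 24 h. The files are lists of called peaks, so their read depth is unknown. The libraries held 243443 to 352369 summits each, and values are given as summits per 100000 summits of the same library. In bulk tissue, fewer nuclei with an open site and less opening in each nucleus cannot be told apart.

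Kv4 channels open below the threshold of an action potential and inactivate quickly. The resulting A-type current delays firing and damps action potentials that travel back into dendrites, for which pyramidal neurons of hippocampal area CA1 are the textbook case. KChIPs bind the channel's cytoplasmic N-terminus and raise its surface level, and DPP6 and DPP10, relatives of dipeptidyl peptidase 4 without its enzyme activity, speed its gating.

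RefSeq lists 15 transcription starts for the 8 genes in its table of promoters on GRCm38.p6, 1 for Kcnd2, Kcnd3, Dpp10 and Kcnip2, 2 for Kcnip4 and 3 for Dpp6, Kcnip1 and Kcnip3, numbered along transcription. The sequences shown are a choice among them, 5′ to 3′ on the gene's own strand from 250 bases before the start to 50 bases from it. Those of Kcnd2, Dpp10 and Kcnip2 are shown as single listed starts. In each the start peak differed between the tissues in one direction in 11 of 11 animals, for Dpp10 not by every measure. Dpp6 start 1 is shown as the one with a match to the TATA box, on the strand opposite to transcription. On the minus strand, the Dpp10 body begins at 124845815, far upstream of its listed start at 124045559. The Kcnip4 body begins at 49525122, upstream of its start 1 at 49285659. Starts outside this list were not examined, so the listed start of Dpp10 need not be its only promoter. Kcnip1 starts 1 and 2 stand together because the first is open mainly in hippocampus and the second in both tissues. Capitals mark matches on either strand to 3 motifs. The SP1 box, searched as GGGCGG, is found in 35.7% of all 32851 promoters of the same length. The NF-Y box, searched as CCAAT, is found in 37.4% of them, and the TATA box, searched with the letters TATAAA, in 13.6%. Kcnd2 lies on chr6:21215096-21215395 (plus strand), Dpp6 start 1 on chr5:26817107-26817406 (plus), Dpp10 on chr1:124045510-124045809 (minus), Kcnip1 start 1 on chr11:33993144-33993443 (minus), Kcnip1 start 2 on chr11:33843637-33843936 (minus) and Kcnip2 on chr19:45816014-45816313 (minus).
Kcnd2: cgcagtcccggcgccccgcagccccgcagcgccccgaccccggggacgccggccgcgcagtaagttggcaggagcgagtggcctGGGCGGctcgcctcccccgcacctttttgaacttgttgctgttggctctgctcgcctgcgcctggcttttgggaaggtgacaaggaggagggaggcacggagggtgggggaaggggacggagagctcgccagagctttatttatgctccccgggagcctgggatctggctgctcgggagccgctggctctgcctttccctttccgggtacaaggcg
Dpp6 start 1: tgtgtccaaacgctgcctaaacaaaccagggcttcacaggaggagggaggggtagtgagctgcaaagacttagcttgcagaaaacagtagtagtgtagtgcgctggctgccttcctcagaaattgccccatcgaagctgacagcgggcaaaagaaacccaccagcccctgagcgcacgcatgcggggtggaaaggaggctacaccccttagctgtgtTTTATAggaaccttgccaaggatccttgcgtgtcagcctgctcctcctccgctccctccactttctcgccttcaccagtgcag
Dpp10: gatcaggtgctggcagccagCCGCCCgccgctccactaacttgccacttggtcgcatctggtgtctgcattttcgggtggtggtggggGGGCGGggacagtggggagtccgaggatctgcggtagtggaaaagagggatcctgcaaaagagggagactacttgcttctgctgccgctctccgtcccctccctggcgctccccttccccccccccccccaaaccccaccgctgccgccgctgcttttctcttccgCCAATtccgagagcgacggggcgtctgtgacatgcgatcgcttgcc
Kcnip1 start 1: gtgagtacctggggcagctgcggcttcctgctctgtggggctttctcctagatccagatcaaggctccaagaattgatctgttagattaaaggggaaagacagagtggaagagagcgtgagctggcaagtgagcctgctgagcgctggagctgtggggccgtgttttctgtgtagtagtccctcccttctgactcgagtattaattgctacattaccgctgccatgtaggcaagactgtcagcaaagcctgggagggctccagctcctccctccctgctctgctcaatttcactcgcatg
Kcnip1 start 2: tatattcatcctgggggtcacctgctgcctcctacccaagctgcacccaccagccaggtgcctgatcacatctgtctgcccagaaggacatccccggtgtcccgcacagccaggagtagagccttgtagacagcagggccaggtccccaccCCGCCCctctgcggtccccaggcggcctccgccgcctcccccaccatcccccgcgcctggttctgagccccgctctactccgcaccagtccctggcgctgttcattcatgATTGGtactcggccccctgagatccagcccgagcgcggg
Kcnip2: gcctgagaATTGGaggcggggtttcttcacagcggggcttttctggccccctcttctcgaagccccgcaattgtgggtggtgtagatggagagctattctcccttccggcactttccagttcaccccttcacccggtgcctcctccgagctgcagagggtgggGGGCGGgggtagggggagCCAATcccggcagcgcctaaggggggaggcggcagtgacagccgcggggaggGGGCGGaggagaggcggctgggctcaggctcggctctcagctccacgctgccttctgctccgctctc

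The 15 windows ranged from 45.3% GC with 4 CpG dinucleotides (Kcnip1 start 3) to 73.3% GC with 28 (Kcnip3 start 3), against medians of 52.7% and 7 over all promoters. Kcnip1 start 1 had 54.3% GC, 7 CpG and none of the motifs, and Kcnip1 start 2 had 66.7% GC, 16 CpG, 1 SP1 box and 1 NF-Y box. The SP1 box was found in 8 of the 15 windows, the NF-Y box in 7 and the TATA box in 1, Dpp6 start 1. There the match is on the strand opposite to transcription and begins 33 bases before the start. The AP-1 site TGANTCA was found in 2 windows (7.81% of all promoters), and 3 others were found in none: the cyclic AMP element TGACGTCA (1.79%), the E-box CACGTG (7.15%) and the strict palindrome of the glucocorticoid element (0.00913%). These are matches of letters in 300 bases and say nothing of a factor's binding.

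A count over the whole gene area grows with the length of the gene. Kcnd2 (chr6:21215346-21729805), the main dendritic Kv4 pore subunit of hippocampal pyramidal cells, had 27.2 ± 1.85 summits per 100000 in hippocampus, against 24.6 ± 1.67 for frontal cortex (SD, n = 11 libraries of each tissue, here and for the genes that follow). Kcnd3 (chr3:105451890-105674002), the pore subunit more common in interneurons, had 24.0 ± 1.24 in hippocampus and 23.6 ± 1.97 in frontal cortex. Kcnip1 (chr11:33629339-33993348), the KChIP typical of interneurons, had 20.1 ± 1.09 in hippocampus and 19.7 ± 1.21 in frontal cortex. The ranges of these 3 genes overlap between the tissues.

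Kcnip4 (chr5:48389503-49525122), a KChIP that slows inactivation, had 45.0 ± 3.08 in hippocampus and 45.3 ± 2.50 in frontal cortex. Kcnip3 (chr2:127456498-127522094), whose product is also known as the calcium-dependent repressor DREAM, had 8.05 ± 0.862 in hippocampus and 8.66 ± 0.601 in frontal cortex. Kcnip2 (chr19:45792346-45816422), also the KChIP of the heart's transient outward current, had 4.24 ± 0.547 in hippocampus and 4.98 ± 0.604 in frontal cortex. The last 2 are the short genes of the set, 65.6 kb and 24.1 kb, against 1514 kb for Dpp10, the longest.

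Per 100 kb of gene area the order in hippocampus was Kcnd3 (9.93 summits per 100000 and 100 kb), Kcnip2 (9.61), Kcnip3 (9.40), Dpp6 (7.02), Kcnip1 (5.22), Kcnd2 (5.08), Kcnip4 (3.89) and Dpp10 (2.29). The ranges over libraries overlapped between Kcnd3, Kcnip2 and Kcnip3 and between Kcnip1 and Kcnd2, and the other neighbours in that order did not overlap. In frontal cortex Dpp10 was again lowest per length, at 3.74, and its range overlapped that of Kcnip4 (3.92) there.

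**Figure D1:**
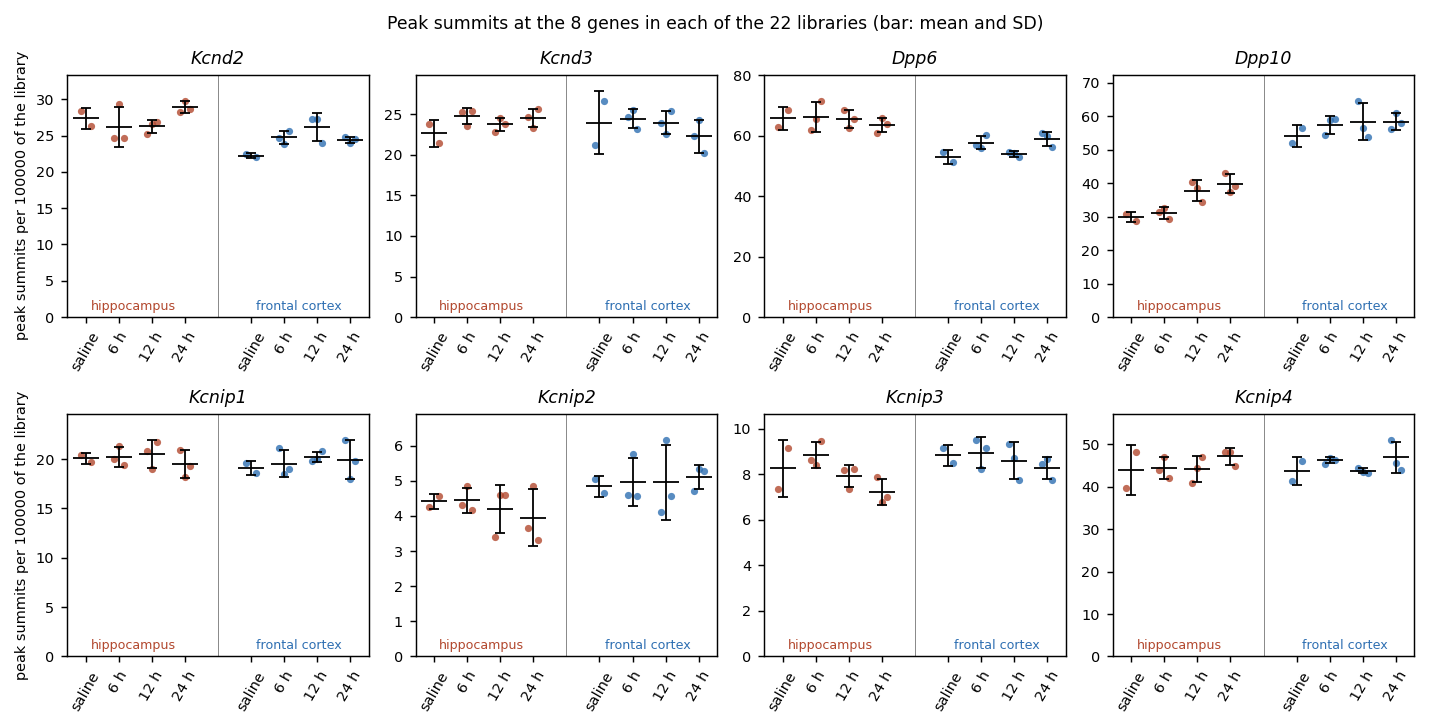
Peak summits per 100000 summits of the library (y axis, from 0) at each of the 8 genes, hippocampus libraries left and frontal cortex libraries right, by saline and hours after LPS; points are libraries, bars the mean and SD (n = 2 for saline, 3 for each time). Dpp10 sits between 28.8 and 43.1 in hippocampus and between 51.8 and 64.7 in frontal cortex. Within hippocampus its 12 h and 24 h libraries lie above the saline and 6 h libraries, a grouping not planned beforehand.

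Dpp10 (chr1:123332138-124845815) and Dpp6 (chr5:26817357-27727500), the 2 DPP subunits, differed between tissues in opposite directions. Dpp10 was lower in hippocampus in 11 of 11 animals, with 28.8, 34.2 and 43.1 summits per 100000 (lowest, median, highest) in hippocampus, against 51.8, 56.6 and 64.7 in frontal cortex. The 2 ranges do not overlap, and the mean difference within animals on the log2(value + 1) scale was -0.70 ± 0.18 (SD, n = 11). The mean level in frontal cortex was 1.64 times that in hippocampus. Dpp6 was higher in hippocampus in 11 of 11 animals, with 61.1, 65.6 and 71.7 in hippocampus, against 51.4, 55.9 and 60.8 in frontal cortex, again without overlap. The log2 difference of Dpp6 was 0.21 ± 0.11. Both kept their direction in every alternative count of peaks, Dpp10 with -0.94 and Dpp6 with 0.31 among the 50000 strongest peaks of each library. Differences between the tissues were common over the genome. By limma with an adjusted p under 0.05, 14.2% of 14176 genes were called higher and 26.2% lower in hippocampus, 40.4% together. The share of all genes whose ranges do not overlap was not computed.

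The other 6 genes overlapped between tissues. Kcnd2 was higher in hippocampus in 7 of 11 animals (log2 difference 0.14 ± 0.16), Kcnd3 in 6 (0.03 ± 0.17), Kcnip1 in 7 (0.02 ± 0.08), Kcnip4 in 6 (-0.01 ± 0.08), Kcnip3 in 4 (-0.10 ± 0.14) and Kcnip2 in 1 (-0.19 ± 0.16). Among the 50000 strongest peaks the sign was the other for Kcnd3 (-0.15), Kcnip4 (0.32) and Kcnip2 (0.34), and Kcnd2 had 0.48, Kcnip1 0.29 and Kcnip3 -0.63. Peaks with a −log10 q of 5 or more turned Kcnd3 (-0.12), and counting distinct intervals turned Kcnip1 (-0.04), so only Kcnd2 and Kcnip3 of these 6 kept their sign in each of these counts. For comparison the median log2 difference over all 14176 genes with a mean of 5 or more summits was -0.05.

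Summits of all libraries were merged into 563375 windows of one fixed width, and a library was counted as having a peak there when the overlap was at least 50% of the shorter of the 2. The 8 genes held 1401 windows. A peak was present in all 22 libraries at 225 of them, or 16.1%, against 18.4% of all windows. Of 811 member windows present in 2 to 20 libraries, 134 had a peak in more hippocampus libraries and 116 in more frontal cortex libraries by Fisher's exact test with an adjusted p under 0.05. Over the whole genome this call was made for 30.5% of windows, 18.3% towards hippocampus and 12.2% towards frontal cortex. Since the genes were chosen with the tissue difference in view, these are counts without a reading.

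By gene, Dpp6 had 38 windows called towards hippocampus and 14 towards frontal cortex, Dpp10 18 and 47, Kcnip4 30 and 27, Kcnd2 20 and 17, Kcnip1 14 and 5, Kcnd3 12 and 5, Kcnip3 2 and 0, and Kcnip2 0 and 1. Called in either direction were 24.1% of 216 tested windows in Dpp6, 34.4% of 189 in Dpp10 and 35.2% of 162 in Kcnip4. The shares were 40.2% of 92 in Kcnd2, 31.1% of 61 in Kcnip1 and 27.4% of 62 in Kcnd3. In Kcnip3 11.1% of 18 and in Kcnip2 9.09% of 11 were called. Over the 8 genes the share was 30.8%, near the 30.5% of all windows. Leaving Dpp10 out gave 116 hippocampal and 69 frontal cortex calls. Kcnd2 and Kcnip4 held many windows of each kind although their summed levels overlapped between tissues. Windows present in 11 of 11 libraries of one tissue and in none of the other numbered 23 towards hippocampus and 17 towards frontal cortex, and 10 of the 17 lay in Dpp10. The share of such windows over the genome was not computed, so these counts are given without a reading.

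The 47 frontal cortex windows of Dpp10 were spread over the gene: 27 lay before its listed RefSeq start, where the windows span 808 kb, and 20 after it, where they span 717 kb, and no more than 2 were neighbours. Most of the stretch before the listed start is itself gene body, which reaches chr1:124845815. The ones with the strongest peaks among those open in 0 hippocampus and 11 frontal cortex libraries were chr1:123765480-123765980, chr1:124510429-124510929 and chr1:123835039-123835539. The hippocampal windows chr1:123455218-123455718 and chr1:124704928-124705428 showed the reverse, 11 hippocampus and 0 frontal cortex libraries. All of these lie within the gene body.

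In Dpp6, 6 windows were open in all hippocampus libraries and in no frontal cortex library, among them chr5:27380966-27381466, chr5:27635255-27635755 and chr5:26889011-26889511, and 1 window, chr5:27725118-27725618 near the gene's end, in all frontal cortex libraries only. Hippocampal windows were found in each stretch of Dpp6, 6 between starts 1 and 2, 11 between starts 2 and 3 and 21 after start 3, against 2, 4 and 8 frontal cortex windows.

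**Figure D2:**
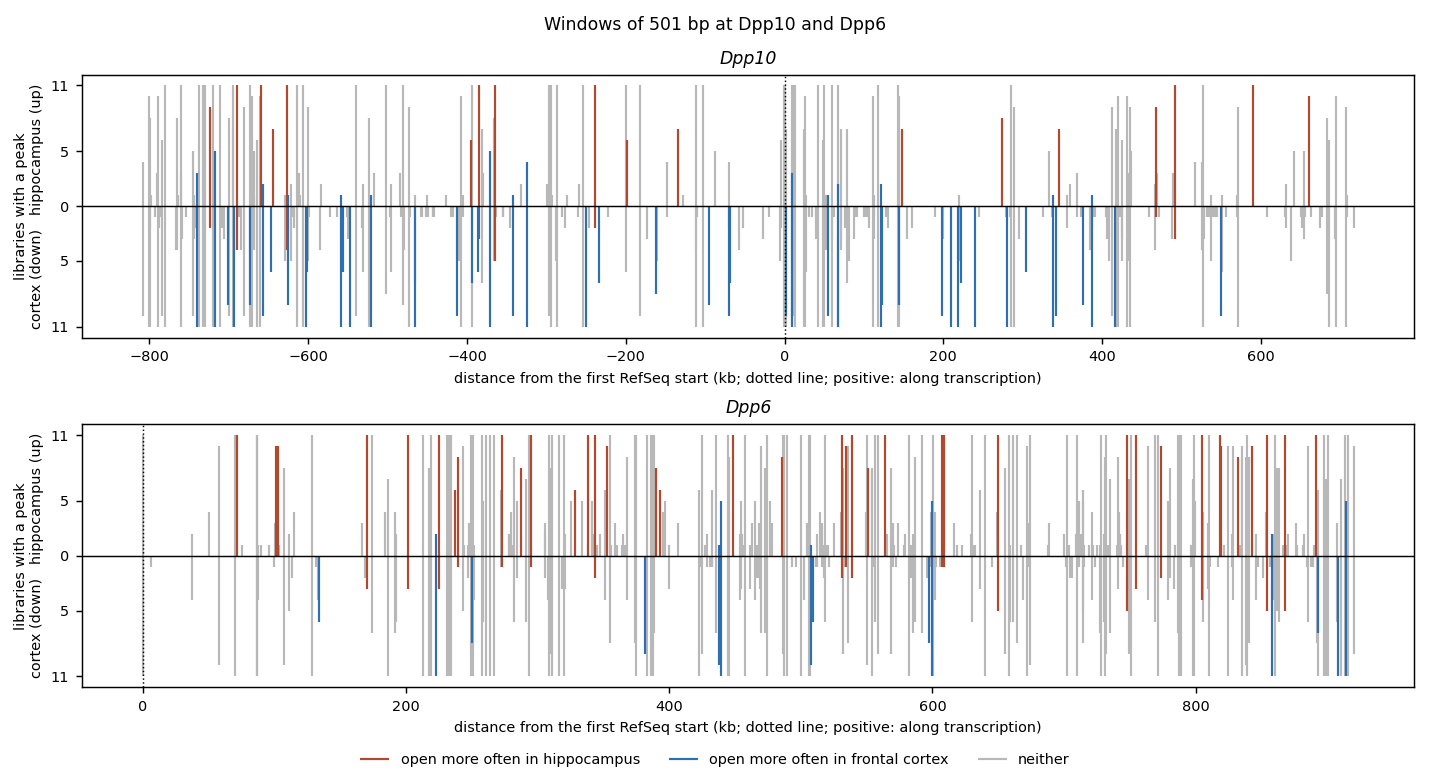
Windows at Dpp10 (above) and Dpp6 (below) by distance in kb from the gene's first RefSeq start; bars upward count the hippocampus libraries with a peak (0 to 11) and bars downward the frontal cortex libraries. Coloured bars are the windows called by Fisher's exact test, 18 red and 47 blue in Dpp10 and 38 red and 14 blue in Dpp6, and both kinds lie on either side of the start of Dpp10 and in each stretch between the starts of Dpp6.

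Kcnd2 had 4 neighbouring windows called towards hippocampus at its far end, chr6:21701097-21722617. Its windows chr6:21701097-21701597, chr6:21368613-21369113 and chr6:21386182-21386682 were open in 11 hippocampus and 0 frontal cortex libraries. The windows chr6:21677466-21677966, chr6:21554834-21555334 and chr6:21267817-21268317 of the same gene were open in 0 hippocampus and 11 frontal cortex libraries. Kcnd3 showed chr3:105478867-105479367 and chr3:105662839-105663339 in 11 hippocampus and 0 frontal cortex libraries, and chr3:105488387-105488887 in 0 and 11.

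In Kcnip1, 8 of the 14 hippocampal windows lay between starts 1 and 2, and 4 neighbouring ones filled the 35.9 kb of chr11:33957621-33993494, which reaches start 1. Among them chr11:33957621-33958121 and chr11:33974520-33975020 were open in 11 hippocampus and 0 frontal cortex libraries. Beyond start 2, chr11:33780218-33780718 showed the same counts, and chr11:33774703-33775203, a few kb away, the reverse. Between start 2 and start 3 the count was 3 towards hippocampus and 4 towards frontal cortex. Kcnip4 had chr5:49238294-49238794, chr5:49494708-49495208 and chr5:49411565-49412065 in 11 hippocampus and 0 frontal cortex libraries and chr5:48439393-48439893 in 0 and 11. After its start 2 it had 1 hippocampal and 6 frontal cortex windows.

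Kcnip3 had 2 called windows, chr2:127497041-127497541 and chr2:127467869-127468369, each in 7 hippocampus and 0 frontal cortex libraries. The single called window of Kcnip2, chr19:45820752-45821252, was present in 0 hippocampus and 8 frontal cortex libraries. It lies upstream of the gene body, in the 10 kb flank, and 6 windows of the Kcnip2 area lie within 1 kb of other protein-coding genes (Oga or Armh3), as do 6 of the Kcnip4 area (Pacrgl) and at most 1 at each of the other genes.

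The strength of the peak at a gene start, given as the percentile of its fold over local background among all summits of its library, did not follow the number of sites. A peak within 1 kb was present in all 22 libraries at 12 of the 15 starts. At the listed start of Dpp10 the percentile was 72.2, 83.1 and 89.0 in hippocampus (lowest, median, highest) and 70.6, 72.3 and 77.8 in frontal cortex, higher in hippocampus in 11 of 11 animals although the gene has fewer sites there. This order turned round with the other measures: the difference of 9.77 percentile points became -5.51 with peaks within 250 bp, and -1.16 with ranks by −log10 p. The median summit lay 472 bases before the start in hippocampus and 335 bases before it in frontal cortex.

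At Kcnd2 the reverse was seen, 76.7 ± 4.24 in hippocampus against 84.3 ± 3.10 for frontal cortex (SD, 11 libraries of each tissue), lower in hippocampus in 11 of 11 animals. Kcnip2 had 64.0 ± 3.28 in hippocampus and 54.1 ± 5.85 in frontal cortex, higher in hippocampus in 11 of 11 animals. Dpp6 start 1 had 52.3 ± 9.26 in hippocampus and 66.7 ± 13.4 in frontal cortex, start 2 had 70.3 ± 3.43 and 78.8 ± 3.84, and start 3, the strongest of the 15, had 91.1 ± 1.68 and 90.4 ± 2.58. The peak taken for Dpp6 start 2 lay near the edge of the 1 kb searched. Its median summit was 868 bases before the start in hippocampus and 870 in frontal cortex, so it may not be a peak of that start. Kcnip4 start 1 had 46.2 ± 8.02 in hippocampus and 59.3 ± 7.97 in frontal cortex, and Kcnd3 had 42.5 ± 7.04 and 48.3 ± 5.30. Kcnip3 starts 1 and 2 share 1 peak, at 67.0 ± 4.53 in hippocampus and 66.5 ± 4.35 in frontal cortex, and start 3 had 54.2 ± 8.14 and 55.0 ± 10.6.

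At Kcnip1 the peak at start 1 was present mainly in hippocampus and the peak at start 2 in both tissues. Start 1, whose sequence stands above, had a peak in 11 of 11 hippocampus libraries, at percentiles of 54.9, 82.4 and 93.7 (lowest, median, highest). In frontal cortex 4 of 11 libraries had one, at 16.8 (LPS 6 h, replicate 1), 17.0 (LPS 6 h, replicate 4), 49.3 (LPS 24 h, replicate 1) and 54.6 (LPS 24 h, replicate 4). All 4 lie below every hippocampus library. Start 2 had a peak in all libraries, at 85.9 ± 3.62 in hippocampus and 85.2 ± 6.00 in frontal cortex. Start 3 had one in 1 hippocampus and 3 frontal cortex libraries, and Kcnip4 start 2 in 9 and 8.

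**Figure D3:**
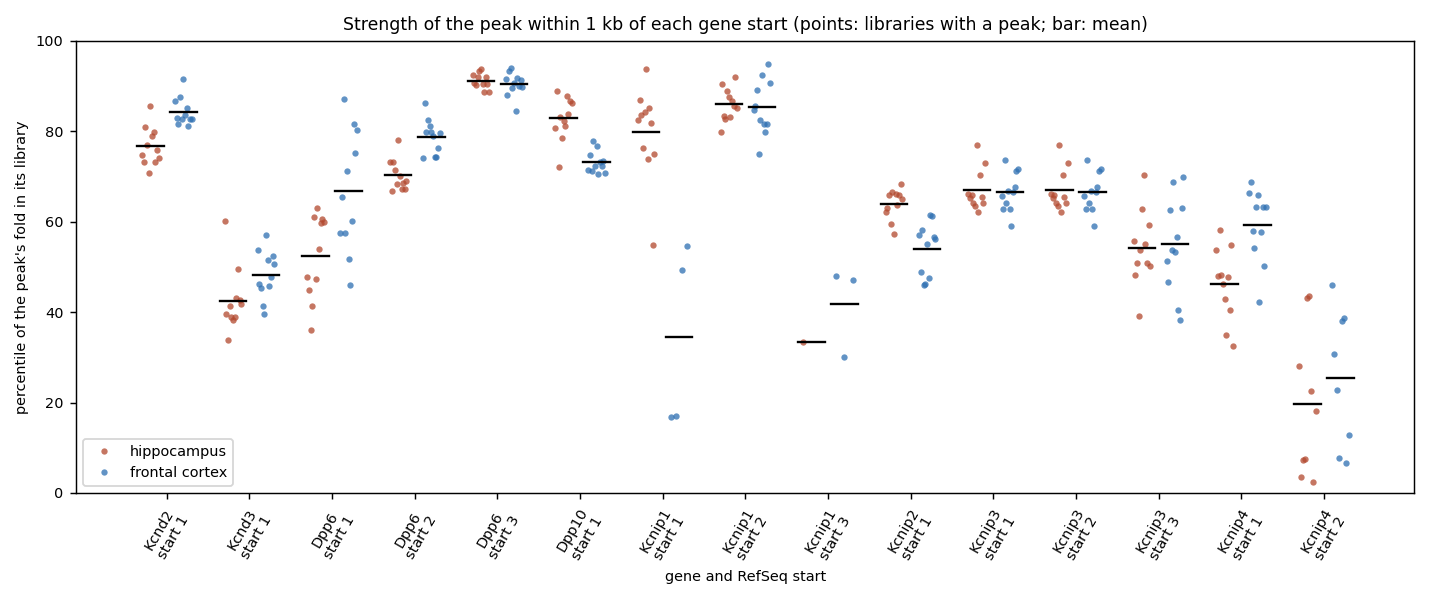
Percentile of the fold of the peak within 1 kb of each RefSeq start (y axis, 0 to 100) for each gene and start; points are libraries that have a peak there, hippocampus left and frontal cortex right, and bars are means. Kcnip1 start 1 shows 11 hippocampus points with a mean of 79.8 and 4 frontal cortex points with a mean of 34.5, while start 2 shows 85.9 and 85.2.

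The tissue markers followed the labels. The summits at 6 hippocampal marker genes (Zbtb20, Prox1, Nr3c2, Wfs1, Man1a, Lct) summed to 93.1 to 120.6 per 100000 in hippocampus libraries and 57.8 to 69.9 in frontal cortex libraries. Those at 5 cortical marker genes (Rorb, Fezf2, Cux2, Tbr1, Fhod3) summed to 42.3 to 54.5 in hippocampus libraries and 73.9 to 82.2 in frontal cortex libraries. None of these genes was at 0 in all libraries. The hippocampal library from saline replicate 2 stood apart: it had a peak at 19.8% of all windows called towards frontal cortex, against 4.20% to 14.2% in the other hippocampus libraries. Among frontal cortex libraries, the 3 from 24 h after LPS (15.6%, 10.5% and 15.4%), LPS 6 h replicate 1 (9.60%) and saline replicate 2 (13.04%) had peaks at more of the windows called towards hippocampus than the other 6 (2.38% to 6.08%). These percentages are not scaled to the number of summits. The 3 from 24 h and saline replicate 2 held 300045 to 322429 summits, LPS 6 h replicate 1 held 283642, and the other 6 held 243443 to 284187. The part of the number of summits was not tested.

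In hippocampus Dpp10 had the largest log2 differences from saline of the 8 genes at LPS 12 h and 24 h, though not at 6 h, and none passed the adjusted threshold. Its summits per 100000 were 30.9 and 28.8 after saline, 31.3, 32.6 and 29.2 at LPS 6 h, 40.3, 38.6 and 34.2 at LPS 12 h, and 43.1, 37.3 and 39.3 at LPS 24 h. The 6 libraries from 12 h and 24 h all lie above the 5 from saline and 6 h. This grouping was not among the planned comparisons, and the share of all genes that separate this way was not computed. By limma over all 14176 genes with Benjamini-Hochberg adjustment, the log2 difference from saline was 0.05 at 6 h (SE 0.08, adjusted p = 0.984), 0.32 at 12 h (SE 0.08, adjusted p = 0.389) and 0.40 at 24 h (SE 0.08, adjusted p = 0.0767). None of these passed the threshold of 0.05, although at 24 h Dpp10 ranked 2 of the 14176 genes by p, and no gene of the genome passed it in that comparison (0% called, 879 genes at an unadjusted p under 0.05). LPS 24 h against LPS 6 h, a difference of means without the saline libraries, gave 0.35 (SE 0.07, limma adjusted p = 0.116). The fit behind that SE and p did include the saline libraries. Over all 9 LPS libraries the mean was 36.2 ± 4.62 against 29.9 ± 1.48 after saline (SD, n = 9 and 2), 8 of 9 above both saline libraries, with p = 0.0727 in an exact two-sided permutation test whose smallest possible p is 0.0364.

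The windows show which kind of site was present. Of the 47 windows of Dpp10 called towards frontal cortex, hippocampus libraries had a peak at 5 and 0 after saline, at 0, 3 and 0 at 6 h, at 4, 3 and 4 at 12 h and at 9, 2 and 3 at 24 h. Of its windows called towards neither tissue they had a peak at 78 and 61 after saline, 67, 73 and 57 at 6 h, 82, 95 and 76 at 12 h and 95, 81 and 79 at 24 h. These are plain counts, and saline replicate 2, with 78, was the library with the most summits of all (352369). Over the genome, the same hippocampus libraries had a peak at 19.8% and 5.22% of the windows called towards frontal cortex after saline, 4.20% to 8.05% at 6 h, 8.48% to 14.1% at 12 h and 7.42% to 14.2% at 24 h. The summed level of the 6 hippocampal markers was 93.1 and 120.6 after saline, 105.1 to 113.4 at 6 h, 95.2 to 102.02 at 12 h and 96.3 to 108.1 at 24 h, and that of the 5 cortical markers was 54.5 and 44.0 after saline, 42.3 to 47.8 at 6 h, 47.5 to 50.4 at 12 h and 47.6 to 49.8 at 24 h. The 5 microglia markers (Cx3cr1, Csf1r, P2ry12, Tmem119, Aif1) summed to 16.5 and 16.9 after saline, 15.5 to 15.97 at 6 h, 16.7 to 18.7 at 12 h and 17.9 to 18.3 at 24 h, so the 24 h libraries lie above those from saline and 6 h. None of these markers was at 0 in all libraries, and the part of any of these measures in the result was not tested. Without saline replicate 2, the hippocampus library with most frontal cortex windows, the log2 difference at 24 h was 0.45 (limma adjusted p = 0.181).

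Windows gained at 24 h, present in 3 of 3 LPS libraries and in neither saline library, numbered 7 of 133 in Dpp10, or 5.26%, against 1.24% of all hippocampus windows, and 0 of the 133 were lost. The 3 present in most libraries were chr1:124844040-124844540 (2 of 3 libraries at 6 h, 3 of 3 at 12 h), chr1:124020491-124020991 (1 and 3 of 3) and chr1:124762860-124763360 (0 and 2 of 3). All 3 had a peak in 11 of 11 frontal cortex libraries, which the choice by number of libraries favours. The other 4 gained windows had a peak in 0, 0, 3 and 5 of 11 frontal cortex libraries. With 2 saline libraries this count is easily moved: without saline replicate 2 it was 17, with 4.92% of all windows gained, without saline replicate 3 it was 14, with 3.05%, and without LPS 24 h replicate 4 it was 11, with 2.36%. At 12 h Dpp10 gained 3 windows, or 2.26%, against 1.46% of all windows.

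In frontal cortex Dpp10 had 51.8 and 56.5 summits per 100000 after saline, 54.3, 58.7 and 59.1 at 6 h, 64.7, 56.6 and 53.9 at 12 h, and 56.1, 61.0 and 58.0 at 24 h after LPS. The groups overlap, and the limma log2 difference at 24 h was 0.11 (SE 0.07, adjusted p = 0.684). The log2 difference at 24 h was 0.30 larger in hippocampus than in frontal cortex (SE 0.10), which did not pass limma's test of whether the LPS effect differed between the tissues (adjusted p = 0.676, 0.00705% of genes called). Without saline replicate 3 that value was 0.19 (limma adjusted p = 0.994), and with each animal left out in turn it ranged from 0.19 to 0.41.

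Dpp6 showed no such course in hippocampus, with 63.002 and 68.6 summits per 100000 after saline, 61.9, 65.6 and 71.7 at 6 h, 68.6, 62.5 and 65.7 at 12 h and 61.1, 65.8 and 63.9 at 24 h. In frontal cortex it had 54.7 and 51.4 after saline, 57.1, 55.9 and 60.2 at 6 h, 54.6, 54.4 and 52.8 at 12 h and 60.8, 59.99 and 56.4 at 24 h. There the 24 h libraries lie above both saline libraries. The log2 difference of 0.15 (SE 0.06, limma adjusted p = 0.459) did not pass the threshold (0.0212% of genes called in that comparison, none of them a member). At Dpp6 windows called towards hippocampus, these 24 h libraries had 10, 4 and 10 peaks, against 3 and 3 after saline. At its windows called towards neither tissue they had 133, 128 and 133, against 132 and 104. These are plain counts, and their part in the result was not tested.

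Kcnd2 in frontal cortex was the one gene of the 8 for which every LPS library of a tissue lay above both saline libraries. It had 22.4 and 22.04 summits per 100000 after saline, 24.7, 23.8 and 25.7 at 6 h, 27.3, 27.2 and 24.0 at 12 h, and 24.8, 24.0 and 24.5 at 24 h. All 9 LPS libraries lie above both saline libraries, 25.1 ± 1.34 against 22.2 ± 0.284 (SD, n = 9 and 2), with p = 0.0364 in the exact two-sided permutation test, the smallest p that 55 splits allow. This is 1 of 16 such tests, 8 genes in 2 tissues, and the share of all genes that separate this way was not computed. The limma log2 difference of 0.17 (SE 0.07, adjusted p = 0.716) ranked 426 by p among all genes and did not pass. The summed level of the 5 microglia markers in frontal cortex split the same way, 17.05 to 19.1 in the 9 LPS libraries against 15.5 and 17.01 after saline, and its part in the result was not tested. In hippocampus the 9 LPS libraries averaged 27.1 ± 1.999 and the 2 saline libraries 27.4 ± 1.42, and the groups overlap.

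The remaining 5 genes, Kcnd3 and the KChIPs, gave exact p-values of 0.145 to 0.982 in the permutation test of 9 LPS against 2 saline libraries in either tissue. No member passed the limma threshold in any comparison within a tissue, and outside frontal cortex LPS 24 h against saline, with 3 genes, no gene did. Kcnip3 in hippocampus had 6.81 to 7.90 summits per 100000 at LPS 24 h, against 9.14 and 7.38 after saline, with overlap. Kcnip4 in hippocampus had 44.9 to 48.3 at LPS 24 h, against 39.7 and 48.2 after saline.

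**Figure D4:**
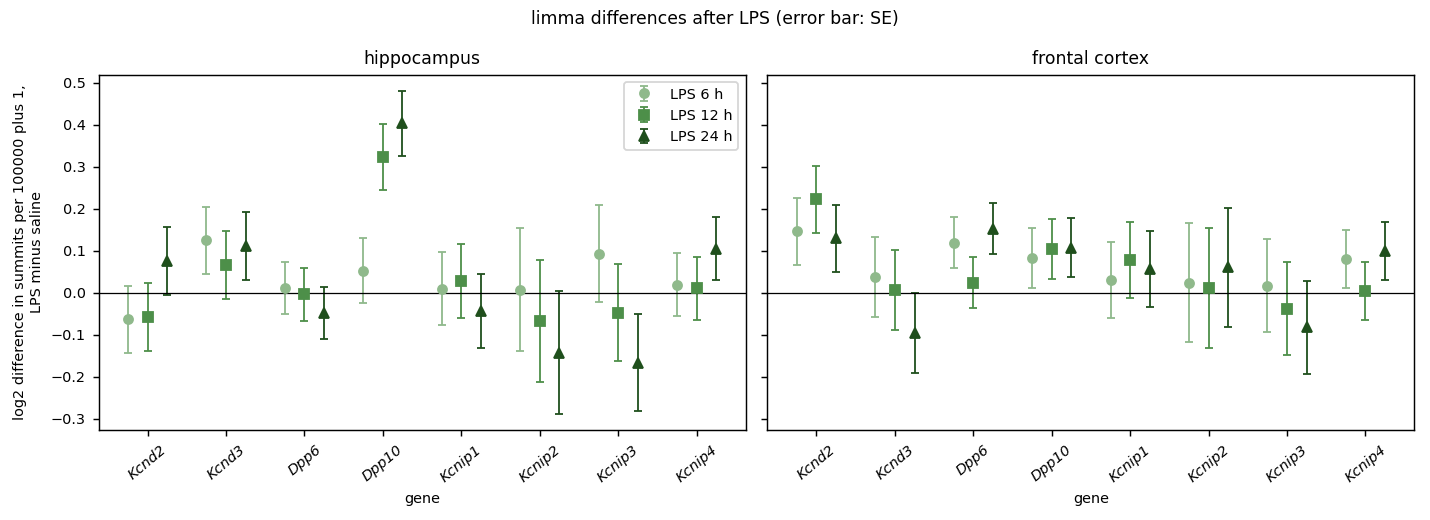
limma log2 differences in summits per 100000 plus 1, LPS minus saline, by hours after LPS for the 8 genes in hippocampus (left) and frontal cortex (right); error bars are SE. Dpp10 in hippocampus, at 0.32 at 12 h and 0.40 at 24 h, stands highest of the 8, and no difference shown passed the adjusted threshold.

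The peaks at the gene starts were compared between LPS and saline in the same way. Of 25 exact permutation tests, 13 starts in hippocampus and 12 in frontal cortex where all libraries had a peak, 1 reached the smallest p of 0.0364: Kcnip4 start 1 in frontal cortex, with a mean percentile of 57.5 in the 9 LPS libraries and 67.5 in the 2 saline libraries. In hippocampus the Dpp10 start had means of 82.4 in LPS and 84.8 in saline libraries (exact p = 0.618).

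The authors' deposited tables list regions whose read coverage csaw called different between LPS and saline within a tissue, and 18 of them lie in the 8 genes. Each FDR given here was converted from the number in the authors' deposited table, taken to be −10 log10 of it. In the authors' deposited table for frontal cortex at 24 h, 11 regions were higher and 0 lower after LPS: 4 in Kcnip4, 3 in Dpp6, 2 in Kcnd3 and 1 each in Kcnd2 and Dpp10. They touch 1.36% of the members' windows, against 1.49% of all frontal cortex windows, so the share is near the background. In the authors' deposited table for hippocampus at 12 h, 5 regions were higher (3 in Dpp10, 1 each in Kcnd2 and Dpp6), touching 0.728% of member windows against 0.328% of all. The authors' deposited table for hippocampus at 12 h also has 2 lower regions, 1 each in Kcnip1 and Kcnip4, touching 0.243% of member windows against 0.527% of all. The other 4 comparisons had none in these genes.

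The lowest FDR of the 18 in the authors' deposited tables was that of Kcnd3 chr3:105631651-105631760 (FDR 3.83e-07). It had a peak in 0 of 2 frontal cortex libraries after saline, 1 of 3 at 6 h, 0 of 3 at 12 h and 3 of 3 at 24 h, and in 0 of 11 hippocampus libraries. Dpp6 chr5:26950801-26950810 (FDR 0.000175 in the authors' deposited table) had the same counts. Kcnip4 chr5:48779451-48779660 (FDR 1.73e-05 in the authors' deposited table) had them in frontal cortex too, but had a peak in 11 of 11 hippocampus libraries. Of the 11 frontal cortex regions 5 were open in all hippocampus libraries, 2 in none, and the other 4 in some.

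The authors' deposited table for frontal cortex also gives Kcnd2 chr6:21325401-21325660 (FDR 0.0166) and Kcnd3 chr3:105546351-105547410 (FDR 0.0321), both with a peak in 11 of 11 frontal cortex libraries. Dpp6 chr5:27252651-27252910 (FDR 0.00717) and chr5:27581051-27581210 (FDR 0.00699) in the authors' deposited table had a peak in 7 and 4 of 9 frontal cortex LPS libraries, against 0 of 2 saline libraries. Dpp10 chr1:124511501-124511610 (FDR 0.00767 in the authors' deposited table) had one in 6 of 9 LPS and 1 of 2 saline libraries of frontal cortex, and in 1 of 11 hippocampus libraries. The other Kcnip4 regions in the authors' deposited table, chr5:48425451-48425710 (FDR 0.0125), chr5:49099501-49099660 (FDR 0.0165) and chr5:49463301-49463610 (FDR 0.0414), had a peak in 8, 6 and 9 of 9 LPS and in 1, 0 and 1 of 2 saline libraries. In hippocampus the authors' deposited table gives Kcnd2 chr6:21471601-21472560 (FDR 0.0128), open in all 22 libraries, and Dpp6 chr5:27065251-27065410 (FDR 0.00721), open in 3 of 9 LPS and 0 of 2 saline libraries and in no frontal cortex library.

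LPS 6 h replicate 1 was the only library outside the 24 h group with a peak at all 11 of these regions. The other frontal cortex libraries from 6 h and 12 h had peaks at 5 or 6 of them, and the saline libraries at 4 and 3. Of the 30 member windows gained in frontal cortex at 24 h (3.70%, against 3.48% of all), LPS 6 h replicate 1 had a peak at 19, the other 6 h and 12 h libraries 6 to 14, and hippocampus libraries 10 to 18. Presence of a peak is not scaled to the number of summits. The LPS 24 h libraries held 318958, 300045 and 322429 summits, against 316364 and 258617 after saline, and the part of this was not tested. The count of 30 was 79 without saline replicate 2, 62 without saline replicate 3, 46 without LPS 24 h replicate 3 and 51 without LPS 24 h replicate 4. LPS 6 h replicate 1 and the 3 LPS 24 h libraries of frontal cortex had summed levels of 5 inhibitory neuron markers (Gad1, Gad2, Slc32a1, Lhx6, Adarb2) of 24.7 to 30.4, against 18.9 to 20.8 in the other 6 h and 12 h libraries and 20.1 and 27.2 after saline. Of 5 striatal neuron markers (Drd1, Drd2, Ppp1r1b, Penk, Adora2a) they had 13.6 to 19.4, against 12.7 to 14.8 in the other 6 h and 12 h libraries and 13.9 in both saline libraries. No gene of either list was at 0 in all libraries, and their part in these regions was not tested.

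In hippocampus, Dpp10 chr1:124020601-124020860 (FDR 0.0231 in the authors' deposited table) had a peak in 0 of 2 libraries after saline, 1 of 3 at 6 h, 3 of 3 at 12 h and 3 of 3 at 24 h, and in 11 of 11 frontal cortex libraries. Dpp10 chr1:123337901-123338210 (FDR 0.0455 in the authors' deposited table) had one in 1 of 2, 2 of 3, 3 of 3 and 3 of 3, and in 11 of 11 frontal cortex libraries. Dpp10 chr1:123612051-123612160 (FDR 0.0186 in the authors' deposited table) had one in 0 of 2, 0 of 3, 2 of 3 and 1 of 3. The lower Kcnip1 region, chr11:33957701-33958010 (FDR 0.00826 in the authors' deposited table), lies in the hippocampal run that reaches start 1 and kept a peak in 11 hippocampus libraries, with none in frontal cortex. The lower Kcnip4 region, chr5:49514101-49514160 (FDR 0.0433 in the authors' deposited table), had a peak in 1 of 3 hippocampus libraries at LPS 12 h, against 2 of 2 after saline.

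**Figure D5:**
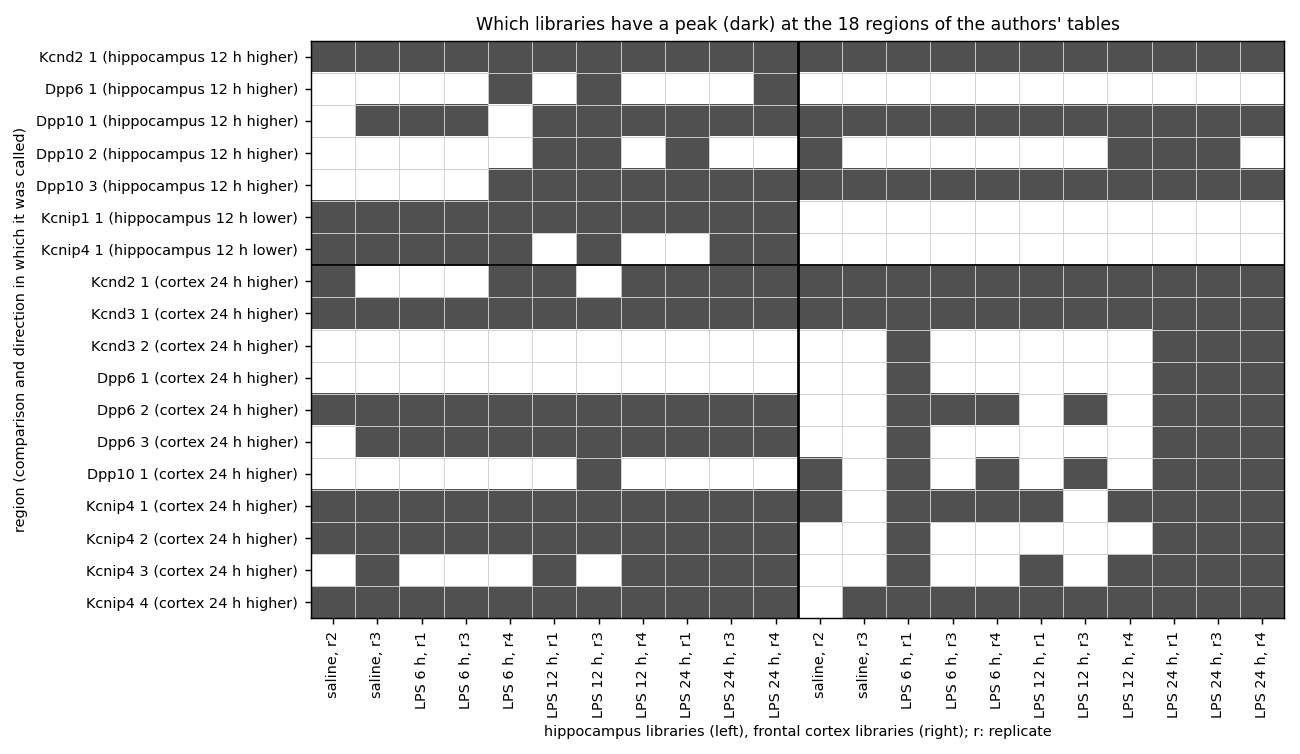
Presence of a peak (dark) in each of the 22 libraries (columns, hippocampus left, frontal cortex right) at the 18 regions of the authors' deposited tables (rows, named by gene, comparison and direction). The frontal cortex LPS 24 h libraries and LPS 6 h replicate 1 have a peak at all 11 frontal cortex regions, and the 2 lower regions of hippocampus have none in any frontal cortex library.

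Across the 22 libraries, the genes whose summits per 100000 followed a member most closely among 2705 genes with a mean of 20 or more summits are given by Pearson's r, as a description, since all share the tissues and libraries. For Dpp10 they were Ptprd (0.97), Gpc6 (0.95) and Efna5 (0.95). For Dpp6 they were Kirrel3 (0.93), Upp2 (0.92) and Tgfbr3 (0.89), for Kcnd2 Rit2 (0.81), Tnks (0.74) and Ntng1 (0.73), and for Kcnip4 Ptchd4 (0.71), Fut8 (0.68) and Zfp804a (0.64). The closest to Kcnip3 was R3hdm2 (0.69), to Kcnd3 Snx25 (0.68) and to Kcnip1 Cep70 (0.64).

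Related potassium channel genes were read from 3 lists. In 10 genes of other A-type subunits and Kv4 partners the median log2 difference between hippocampus and frontal cortex was -0.01, and the largest were Kcne2 (-0.30), Lgi1 (0.27) and Kcnc4 (-0.26). Of 5 dipeptidyl peptidase relatives 4 could be tested, with a median of -0.26, and the catalytic relatives Fap (-0.72) and Dpp4 (-0.42), which lie close together in the genome, were lower in hippocampus and Dpp8 (0.16) higher. Of 17 other voltage-gated potassium channel genes 16 could be tested, with a median of -0.24 and 2 of 16 higher in hippocampus, the largest being Kcnh5 (-0.75), Kcnh7 (-0.70) and Kcnq5 (-0.45). The median of all genes was -0.05 and that of the 8 members 0.01. None of the genes tested in these lists passed the limma threshold in any comparison of LPS with saline.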

How the data were processed

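Peak lists of 22 OMNI-ATAC-seq libraries were used. Per the submitters' processing notes, the tools were MACS2 2.2.7.1, Bowtie2 2.4.4, FastQC 0.11.9 and Trim Galore 0.6.7, and the build was GRCm38 (mm10). Peak thresholds, read shift and duplicate handling are not stated in the sources used here. In the peak lists themselves the lowest −log10 p was about 2.00 in each library, and the lowest −log10 q was 0.501 to 0.643. The counts therefore include many weak peaks. Each deposited peak carries the authors' score, fold over local background, −log10 p and −log10 q. The authors' 6 tables of differential regions come from csaw within tissue against saline, per the series' design text, and their deposited number per region was taken to be −10 log10 of the FDR because no value falls under the one that stands for 0.05. The files hold no read depth, so no counting intervals are given.

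From these, summits per gene were counted (body and 10 kb), scaled to 100000 per library and compared as log2(value + 1) with limma 3.58.1 (R 4.3.3) over 14176 genes with a mean of 5 or more summits. A fold on this scale understates the change of genes with few summits. The limma fit used all 11 libraries of a tissue, and the test of whether the LPS effect differed between tissues used the differences within animals. Windows of one fixed width were centred on summits, strongest first and without overlap, and tested with Fisher's exact test where present in 2 to 20 libraries, with Benjamini-Hochberg adjustment. Single values were compared by exact permutation. The limma fit was tried on simulated counts for hippocampus, LPS pooled against saline, drawn with no added variation between animals. Its outcome is not given here and does not cover real variation between animals. Tissues were paired by animal, per the labels. The deviations of both tissues of an animal from their group means correlated between -0.10 and 0.25 over 523 genes (11 pairs). Nothing in the labels says that replicate numbers pair animals across LPS times, and p-values measure the spread between these animals only.

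The members and gene lists were chosen with earlier results of these data known. Named windows are up to 3 per gene and direction with the largest difference in libraries with a peak, gained windows the 3 present in most libraries, and likeness genes the 3 closest (1 for Kcnd3, Kcnip1, Kcnip2 and Kcnip3), and not all are printed. The gene closest to Kcnip2 is not reported here, and the cortical sum uses 5 of the 6 markers listed, chosen after seeing the data. Summed marker levels of the other lists, in hippocampus and in frontal cortex, were 20.3 to 24.7 and 16.8 to 21.1 for astrocytes, 11.9 to 15.3 and 12.6 to 16.2 for oligodendrocytes and 17.3 to 23.6 and 18.3 to 22.3 for endothelial and mural cells. Alternatives were stricter peaks, the 50000 strongest peaks, distinct intervals, the gene body alone, other pseudocounts and filters, other overlaps and distances, a replicate block and each library or animal left out. Sequences come from RefSeq's promoter table for GRCm38.p6, in which all 8 genes matched by symbol.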

Additional observations from a re-analysis of the deposited data

Results flagged for a closer look

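Among 41 groups of 9 LPS libraries checked for a library far from the others, 2 held one, and chance alone marks about 1 in 20 groups. Kcnip4 had 51.1 summits per 100000 in frontal cortex at LPS 24 h replicate 1, the highest of its 9 LPS libraries, where the nearest had 46.8. The peak at Dpp6 start 3 had a percentile of 84.5 in frontal cortex at LPS 12 h replicate 3, the lowest of 9, where the nearest had 89.6.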

How the results depend on the processing

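Of the alternatives computed, 467 were labelled the same, 42 moved, 2 reversed and 1 passed a threshold not passed before. The same meant the same side of the threshold, a difference within the spread between replicates, or a count within a fixed factor. For summits per gene between tissues, a turned sign was labelled reversed for Dpp10 only. The turned signs of other genes given above are therefore not among the 2. The within-animal difference of summits repeats the main values, so it was the same by construction. Members higher in hippocampus numbered 4 and ranged over 3 to 5 with an animal left out. Windows called towards hippocampus and frontal cortex numbered 28 and 26 with the 50000 strongest peaks, and 118 to 129 and 96 to 108 with an animal left out. With the animal as a replicate block, an exact sign test, they were 94 and 78. The block on replicate number, which pairs no animals (24 same-numbered pairs of libraries correlated between -0.35 and 0.35), gave 1 member call in hippocampus, Dpp10 at LPS 24 h against LPS 6 h (limma adjusted p = 0.0427, over all alternatives 0.0427 to 0.825), and changed no other call. Member calls stayed at 0 with each library left out. Dpp10 at 24 h against saline in hippocampus kept its direction in 19 alternatives, 0.32 to 0.46 (limma adjusted p = 0.0514 to 0.691), and 0.35 to 0.45 with a library left out. Dpp6 in frontal cortex at 24 h ranged over 0.01 to 0.20 and Kcnd2 there, LPS pooled, over 0.04 to 0.30. With an FDR of 0.01 the authors' deposited tables hold 7 higher and 1 lower regions in the 8 genes. Gained windows in hippocampus at 24 h numbered 16, 5 with stricter peaks (−log10 q of 5 or more) and 16 to 40 with a library left out, and lost ones 13 and 13 to 38. In frontal cortex at 24 h the ranges were 30 to 79 gained and 8 to 29 lost. The percentile at the Dpp10 start, higher in hippocampus by 9.77 points, reversed to -5.51 within 250 bp and to -1.16 by −log10 p, and the cause was not tested. The number of called peaks limits all counts, since the depth behind them is unknown.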
